A study of Mus musculus with 6 samples.

Results

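Matrix metalloproteinases (Mmp), adamalysins (Adam and Adamts), the plasminogen activators and the tissue inhibitors of metalloproteinases (Timp) were followed in mouse skin as a set of 37 gene symbols. The set was chosen by family, with earlier results of these data known. Of the 37 symbols, 35 had a probe with a single gene symbol on the array, through 38 probes, among 22879 rows in all. Mmp15 and Adamts2 were not analysed here. RNA came from the skin of 3 mice carrying the LynDN transgene and of 3 wild-type (WT) mice. Lyn belongs to the Src family of tyrosine kinases, and the transgene is spelled LynDeltaN in the title of the series. The sources used here do not give the promoter of the transgene or the strain, age and sex of the mice. LynDN mouse 1 was paired with WT mouse 1, LynDN mouse 2 with WT mouse 3, and LynDN mouse 3 with WT mouse 2, and each of these 3 pairs was hybridised on 2 two-colour arrays with the dyes exchanged. A value is therefore a log2 ratio of LynDN and WT skin of 1 pair, and no level of either genotype alone was available.

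The sign of every ratio is given as deposited, because neither the labels nor the values state which genotype is the numerator. If the numerator were WT, all signs below would turn together. LynDN mice are known for a psoriasis-like skin inflammation, which would make LynDN the likely numerator. No row was named Lyn, so the transgene could not check the sign, and "positive" and "negative" are used here for the sides as deposited. Base 2 was assumed for the log, which the labels do not name. The array SDs of the log ratios lay between 0.258 and 0.360, and no value was missing. Pair 1 stood apart from the others. Across all rows its ratios correlated with those of pairs 2 and 3 at r = 0.350 and 0.386, against 0.745 between pairs 2 and 3, as a description over genes that are not independent. The Y-linked gene Eif2s3y had a log2 ratio of 3.50 in pair 1 and was within 0.03 of 0 in pairs 2 and 3, and Kdm5d, also Y-linked, had 1.24 in pair 1 and -0.05 and 0.13 in the others. The pair values of Xist, the RNA that silences an X chromosome in females, in pairs 1, 2 and 3 were -1.06, -0.09 and -0.14, while the Y-linked Uty had 0.07, 0.13 and -0.48. The 2 arrays of pair 1 also shared little across all rows, with r = 0.0239 between them, against 0.463 and 0.462 in pairs 2 and 3. Values without pair 1 are given for members whose call or sign changed with it, and the part of sex in these results was not tested.

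Matrix metalloproteinases are zinc enzymes that cut collagens, gelatins, elastin and other proteins of the extracellular matrix. They are made as inactive proenzymes and held in check by Timps. Urokinase (Plau) turns plasminogen into plasmin, which cuts fibrin and activates several Mmp proenzymes. Adams are membrane proteases that release growth factors, cytokines and receptors from the cell surface, and Adamts proteases cut proteoglycans such as aggrecan and versican. In skin these enzymes are known for their roles in wound repair, in the passage of leukocytes and in the renewal of the dermis.

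Adam8, Mmp9 and Plau had the largest ratios of the 35 genes, with mean log2 ratios of 1.03, 0.79 and 0.52. All 3 were high on both arrays of pairs 2 and 3. In pair 1, Adam8 and Mmp9 were near 0 on both arrays, and Plau had -0.11 and 0.32. The other genes lay between -0.28 for Mmp23 and 0.25 for Adamts1. In the limma test on the 3 pair values, adjusted over all rows, 0 of 35 members passed, where 0.0175% of all rows did. The smallest adjusted p among members was 0.282, and 5 positive and 1 negative members had an unadjusted p under 0.05. These are shares of 14.3% and 2.86% of the members, beside 5.92% and 6.41% of all rows. Positive values of at least 0.5 were reached by 3 members, or 8.57%, beside 1.54% of all rows, and negative ones by 0 members, beside 0.686% of all rows. The median over members was 0.02, against -0.01 over all rows, and 82.9% of members, against 87.6% of all rows, were smaller than 0.2 in size.

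**Figure D1:**
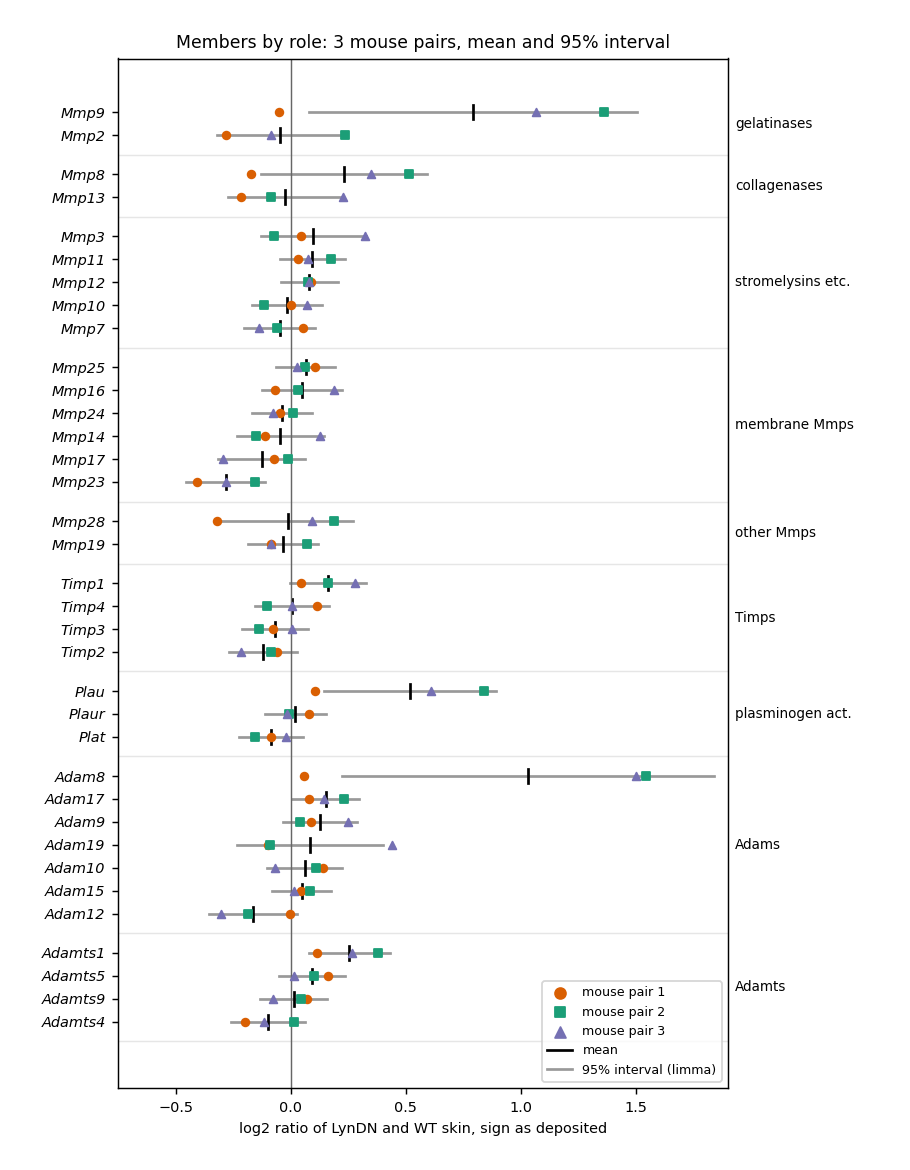
Log2 ratios of LynDN and WT skin (horizontal axis, sign as deposited) for the 35 measured genes grouped by role; coloured symbols are the 3 mouse pairs, black ticks their mean and grey bars the 95% interval from limma. Adam8, Mmp9 and Plau are at 0.61 or above in pairs 2 and 3 and at 0.11 or below in pair 1, and most other genes scatter around 0.

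Adam8, a membrane protease found mainly on myeloid cells, had log2 ratios of 1.67 and 1.42 on the arrays of pair 2 and of 1.48 and 1.52 on those of pair 3. On the arrays of pair 1 it had -0.05 and 0.16. The 4 arrays of pairs 2 and 3 thus agreed closely and did not overlap with those of pair 1. Over the 3 pairs the mean was 1.03 ± 0.85 (SD, n = 3), a 2.04-fold ratio, with a 95% interval from 0.22 to 1.84 and an adjusted p of 0.339 in limma. Its size ranked 131st among all rows.

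The promoter of Adam8 is shown because the gene had the largest ratio of the set. The window runs from 250 bases before to 50 bases after the gene's start, from RefSeq, GRCm38.p6, chr7:139992513-139992812, minus strand, with its 1 GC box word (GGGCGG or, on the other strand, CCGCCC) in capitals.
Adam8: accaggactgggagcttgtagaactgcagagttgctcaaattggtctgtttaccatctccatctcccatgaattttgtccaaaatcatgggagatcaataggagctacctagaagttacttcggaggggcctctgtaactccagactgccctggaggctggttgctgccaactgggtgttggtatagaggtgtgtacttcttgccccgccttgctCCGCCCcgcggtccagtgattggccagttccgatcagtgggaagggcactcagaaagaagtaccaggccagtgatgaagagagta

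Mmp9, or gelatinase B, is stored in neutrophil granules and also made by keratinocytes at wound edges. Pair 2 gave 1.23 and 1.49, pair 3 gave 1.10 and 1.03, and pair 1 gave -0.19 and 0.09. As for Adam8, pair 1 lay apart from the other pairs on both arrays. The mean was 0.79 ± 0.74 (SD, n = 3), with a 95% interval from 0.08 to 1.51 and an adjusted p of 0.378 in limma. The other gelatinase, Mmp2, a product of fibroblasts, had pair values of -0.28, 0.23 and -0.09 in pairs 1, 2 and 3, and its sign followed the dye orientation (below).

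For Plau the arrays gave 0.89 and 0.79 for pair 2, 0.46 and 0.76 for pair 3, and -0.11 and 0.32 for pair 1. The arrays of pair 1 were lower than the other 4, with less distance than for Adam8. Its mean was 0.52 ± 0.37 (SD, n = 3), with a 95% interval from 0.14 to 0.89 and an adjusted p of 0.322 in limma. Plaur, the membrane receptor that holds urokinase on cells, had a mean of 0.02 (95% interval -0.11 to 0.15). Plat, the tissue-type activator, had -0.09 (-0.23 to 0.05). Of the 3 genes of the plasminogen activator group, Plau alone had an interval that left out 0, and the difference between it and the others was not tested.

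Mmp8, the neutrophil collagenase, had 0.64 and 0.39 in pair 2 and 0.53 and 0.17 in pair 3. In pair 1 the arrays lay far apart, at 0.41 with LynDN in Cy3 and -0.75 with LynDN in Cy5. The mean of 0.23 ± 0.36 (SD, n = 3) therefore rests on a pair whose own arrays had opposite signs. Mmp13, the main interstitial collagenase of rodents, had pair values of -0.22, -0.09 and 0.23 in pairs 1, 2 and 3, which lay on both sides of 0.

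Adam8, Mmp9, Plau and Mmp8 passed the test once pair 1 was left out. Over pairs 2 and 3, limma gave Adam8 a mean of 1.52 (adjusted p = 0.00106), Mmp9 1.21 (adjusted p = 0.00585), Plau 0.72 (adjusted p = 0.0167) and Mmp8 0.43 (adjusted p = 0.0450). Thus 4 of 35 members passed, or 11.4%, all positive, beside 3.22% of all rows passing on the positive side and 1.67% on the negative side, where 0 members passed. These are calls from 2 mouse pairs. Signs turned without pair 1 for 6 members, all with means under 0.05 in size over 3 pairs. Mmp2 had 0.07, Mmp13 0.07 and Mmp28 0.14 over pairs 2 and 3, and Adamts9, Plaur and Timp4 had -0.02, -0.01 and -0.05. Without pair 2 or pair 3, 0 members passed. In a fit of all 6 arrays with dye as a covariate and mouse pairs as a random replicate block, 0 of 35 members passed. The block takes 1 correlation of 0.151 between the 2 arrays of a pair for all rows. Where the arrays of a pair agree more closely than that, its p can be too small, here and below. In that fit 1.06% of all rows passed, 0.603% positive and 0.459% negative. The adjusted p with the block was 0.114 for Adam8, 0.113 for Plau and 0.158 for Mmp9.

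**Figure D2:**
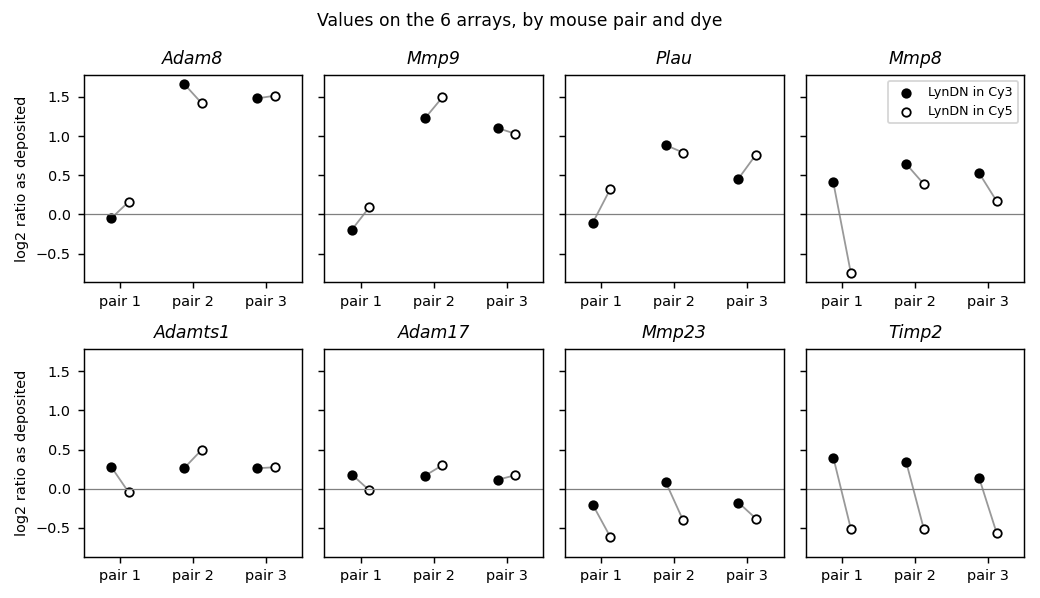
Log2 ratios as deposited (vertical axis) on the 6 arrays for 8 genes; each panel shows the 3 mouse pairs, with filled points for arrays with LynDN in Cy3 and open points for LynDN in Cy5, joined within a pair. Adam8 and Mmp9 are at 1.03 or above on the 4 arrays of pairs 2 and 3, while Timp2 is positive on every filled point and negative on every open one.

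Adam8, Mmp8 and Mmp9 are known to be made in white blood cells. Some markers were higher in both pairs 2 and 3 than in pair 1, as were 33.8% of all rows. Among markers of white blood cells these were 7 of 9 neutrophil and 8 of 10 macrophage and monocyte genes. Other such genes were 6 of 8 fibroblast and 5 of 5 basal keratinocyte genes, so the order was not particular to white blood cells. Of T cell genes 2 of 6 were higher, and of hair follicle genes 0 of 8. Exceptions among the neutrophil, macrophage and monocyte markers were Itgam, Mpo, Itgax and Fcgr1. In pairs 1, 2 and 3, Itgam had 0.29, 0.12 and -1.08, and Mpo had 0.30, -0.13 and 0.31. Itgax had 0.01, -0.30 and -0.01, and Fcgr1 had 0.14, 0.18 and 0.07. In bulk skin, more cells of a type and more RNA per cell cannot be told apart. Of 10 neutrophil markers 9 were measured and 8 were positive, with medians of 0.23, 0.46 and 0.43 in pairs 1, 2 and 3. Retnlg, a secreted protein of neutrophils, had 0.41, 3.70 and 3.33, and the chemokine receptor Cxcr2 had 0.23, 0.84 and 0.57. The means of the list ran from -0.22 for Itgam to 2.48 for Retnlg, and 0 markers passed on the pair values. With the block 1 passed and without pair 1, 5 passed, all positive, beside 0.603% and 3.22% of all rows.

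Macrophage and monocyte markers, 10 of 12 measured and 9 positive, had medians of -0.03, 0.42 and 0.70 in pairs 1, 2 and 3. Fcgr3, an Fc receptor, had -0.04, 0.85 and 1.15, and the protease Ctss had -0.06, 1.03 and 1.65. The list ran from -0.10 for Itgax to 0.88 for Ctss, and 0 passed on the pair values or with the block. Without pair 1, 6 passed, all positive, beside 3.22% of all rows. Basal and suprabasal keratinocyte genes followed the pairs as well. Medians were 0.28, 0.63 and 0.62 for 5 basal keratinocyte genes and -0.46, -1.80 and -2.05 for 5 suprabasal ones. With the block, 2 positive basal and 2 negative suprabasal genes passed, beside 0.603% and 0.459% of all rows. The 3 measured stress keratin genes were high in pair 1 too, with medians of 2.38, 2.43 and 2.68. Krt6b had 3.44, 5.34 and 5.68, and Krt16 had 2.38, 2.43 and 2.68. Krt16 passed on the pair values (adjusted p = 0.00311 in limma), beside 0.0175% of all rows. The array gives ratios only, so no marker could be shown to be absent, and the part of each cell type in the ratios of Adam8, Mmp9, Mmp8 and Plau was not tested.

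**Figure D3:**
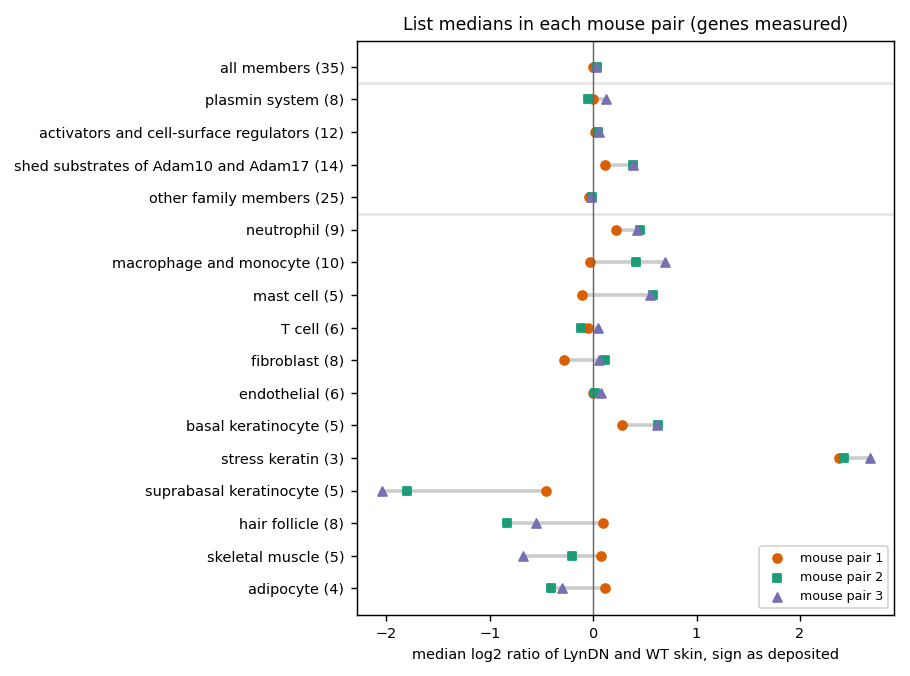
Median log2 ratio (horizontal axis, sign as deposited) of each gene list in the 3 mouse pairs, with the number of measured genes in brackets. The 35 members have medians near 0 in every pair. Several other lists have higher medians in pairs 2 and 3 than in pair 1, among them neutrophil, macrophage, mast cell, fibroblast and basal keratinocyte markers.

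Of the remaining secreted Mmps, none reached an unadjusted p under 0.05. The stromelysins Mmp3, Mmp10 and Mmp11, the matrilysin Mmp7 and the macrophage elastase Mmp12 had means from -0.05 for Mmp7 to 0.10 for Mmp3. Mmp12 had 0.09, 0.07 and 0.08 in pairs 1, 2 and 3, the smallest spread of pair values among the members (SD 0.01, n = 3). That spread hides the dyes, since the arrays of pair 1 gave -0.14 and 0.31. Mmp3, which activates other Mmp proenzymes, ranged over its arrays between 0.18 and -0.10 in pair 1 and between 0.11 and 0.53 in pair 3. Its 95% interval was -0.13 to 0.33. Epilysin (Mmp28) had -0.32, 0.19 and 0.09 in pairs 1, 2 and 3, and Mmp19 had -0.09, 0.07 and -0.09.

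Of the genes above, Mmp3, Mmp7, Mmp8, Mmp10, Mmp12 and Mmp13 stand in 1 row in the mouse genome. In the RefSeq annotation, 10 Mmp genes follow each other on chromosome 9 with no other protein-coding gene between them, from Mmp13 through Mmp12, Mmp1b, Mmp3, Mmp1a, Mmp10, Mmp8, Mmp27 and Mmp20 to Mmp7. The 6 members in this row had means from -0.05 for Mmp7 to 0.23 for Mmp8. Promoter stretches of this row are shown because 5 of the 6 hold the AP-1 word, the site bound by Fos and Jun proteins, close to the start. The stretches are 60 bases long, from RefSeq, GRCm38.p6, plus strand, with the word (TGAGTCA or, on the other strand, TGACTCA) in capitals.
Mmp13, chr9:7272457-7272516: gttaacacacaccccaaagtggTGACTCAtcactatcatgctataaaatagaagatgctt
Mmp12, chr9:7347308-7347367: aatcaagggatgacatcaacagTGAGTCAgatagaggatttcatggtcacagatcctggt
Mmp3, chr9:7445754-7445813: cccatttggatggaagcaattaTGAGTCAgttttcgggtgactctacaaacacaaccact
Mmp10, chr9:7502257-7502316: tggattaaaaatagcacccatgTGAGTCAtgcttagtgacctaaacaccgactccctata
Mmp7, chr9:7692005-7692064: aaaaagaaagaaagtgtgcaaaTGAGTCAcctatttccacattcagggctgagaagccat

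The word begins 35 bases before the start in Mmp13, 44 in Mmp12, 46 in Mmp3 and 63 in Mmp10 and Mmp7, where Mmp12 and Mmp7 have a second window without it. Of the 35 members, 24 had a window of 300 bases in the RefSeq table, with 29 windows in all, and Mmp9 and Plau were not among the genes searched. The AP-1 word was in 7 of these 29 windows (24.1%), against 5.2% of 32851 windows of all genes. The other matches were Plaur and Adam19, and the windows of Adam8 and Mmp8 did not hold these letters. The GC box was in 58.6% of member windows, against 35.7% of all, and the PEA3 word of Ets factors (AGGAAG or CTTCCT) in 51.7%, against 35.4%. An NF-kB site was matched in 4 member windows, or 13.8%, against 5.8%, those of Adam19, Adamts9, Mmp12 and Mmp25. These are letter matches and show no binding. Among genes with the AP-1 word the mean ratios ran from -0.05 for Mmp7 to 0.10 for Mmp3.

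Of 6 measured membrane-anchored Mmps, 4 were negative and 2 positive. Mmp23 had the smallest p of all members and the most negative mean. Pair 1 gave -0.20 and -0.61, pair 2 gave 0.09 and -0.40, and pair 3 gave -0.18 and -0.38, with LynDN in Cy3 and in Cy5. Thus 5 of 6 arrays were negative, and in each pair the array with LynDN in Cy5 was lower. The mean was -0.28 ± 0.13 (SD, n = 3), with a 95% interval from -0.45 to -0.11 and adjusted p = 0.282 in limma. Mmp14, which activates Mmp2 at the cell surface, had -0.11, -0.15 and 0.13 in pairs 1, 2 and 3. Mmp17 had a mean of -0.13, in which 1 array of pair 3 at -0.56 stood apart from the others (-0.15 to 0.06). Mmp16 had 0.05 and Mmp24 -0.04. Mmp25, a protease of the neutrophil surface, had a mean of 0.06 (95% interval -0.07 to 0.19) and 0.06 and 0.03 in pairs 2 and 3. Its difference from the neutrophil genes Mmp8 and Mmp9 was not tested.

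Among the Adams, 6 of 7 means were positive. Adam17, which releases tumour necrosis factor and EGFR ligands from cells, had 0.18 and -0.02 on the arrays of the first pair, 0.16 and 0.30 on those of the second, and 0.11 and 0.17 on those of the third. It was positive on 5 of 6 arrays, with a mean of 0.15 ± 0.08 (SD, n = 3) and adjusted p = 0.391 in limma. This is a ratio of 1.11-fold, and its 95% interval ran from 0.01 to 0.30. Adam9 had a mean of 0.13 and Adam12 one of -0.16, where Adam12 was at -0.00 in pair 1 and at -0.18 and -0.31 in pairs 2 and 3. Adam15 was the sole member with 1 sign on 6 arrays (2.86% of members, beside 3.72% of all rows positive and 4.31% negative on 6 arrays), but its values lay between 0.01 and 0.09. Adam19 had 0.79 on 1 array of pair 3 and -0.27 to 0.09 on the others.

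Adam10, the main protease that cuts Notch receptors at the surface, had a mean of 0.06 over 2 probes. These probes differed. On the array of pair 3 with LynDN in Cy3, the probe of the RefSeq transcript gave -0.64 and the other gave 0.15.

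Adamts1, a protease of aggrecan and versican, gave 0.28 and -0.05 for pair 1, 0.26 and 0.50 for pair 2, and 0.26 and 0.27 for pair 3. It was positive on 5 of 6 arrays and in each pair mean, at 0.11, 0.38 and 0.27. The mean was 0.25 ± 0.13 (SD, n = 3), with a 95% interval from 0.08 to 0.43 and adjusted p = 0.307 in limma. The aggrecanases Adamts4 and Adamts5 had means of -0.10 and 0.09, and Adamts9 had 0.01 over 3 probes. None of these 3 had an interval that left out 0.

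Timps were close to 0 when the dyes were averaged. Timp1, an inhibitor that many cells raise in inflammation, had pair values of 0.04, 0.16 and 0.28 and a mean of 0.16 ± 0.12 (SD, n = 3; adjusted p = 0.416 in limma). Timp2 had -0.12, Timp3, which binds to the matrix and inhibits Adam17 and aggrecanases, had -0.07, and Timp4 had 0.00. All 4 Timp means were smaller than 0.2 in size. A ratio of protease to inhibitor was not tested.

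The sign of several members differed between the dye orientations. Timp2 was positive with LynDN in Cy3, at 0.40, 0.34 and 0.13 in pairs 1, 2 and 3, and negative with LynDN in Cy5, at -0.51, -0.51 and -0.57. Mmp2 had 0.05, 0.54 and 0.28 in the first orientation and -0.61, -0.07 and -0.45 in the second. Mmp24 behaved alike at smaller values. In all, 3 of 35 members, or 8.57%, had opposite signs in the 2 orientations on all arrays, beside 11.4% of all rows. The difference between orientations passed for 1 member, Timp2 (2.86% of members, beside 0.573% of all rows). Adam8 had 1.03 in both orientations, Mmp9 had 0.71 and 0.87, and Plau had 0.41 and 0.62 with LynDN in Cy3 and in Cy5. Mmp8 had 0.52 and -0.06 in these orientations, where the array of pair 1 with LynDN in Cy5 was at -0.75.

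**Figure D4:**
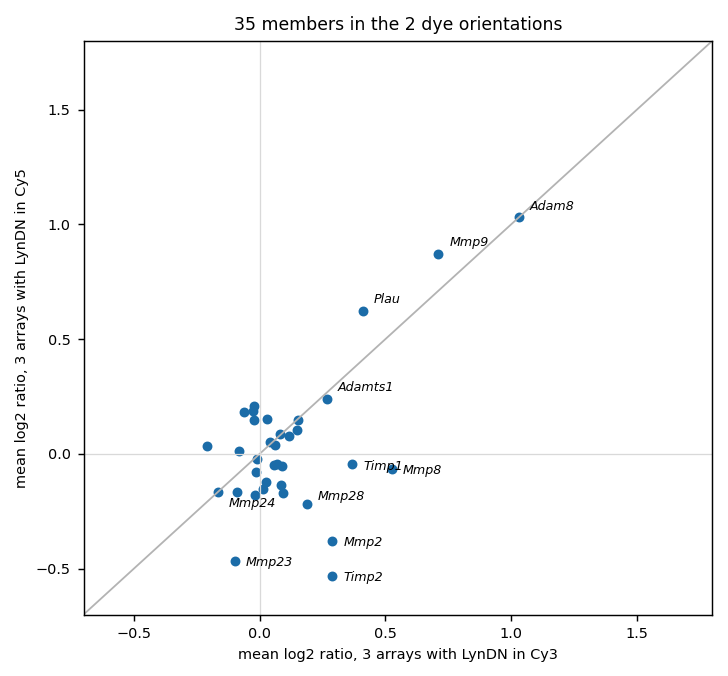
Mean log2 ratio of each of the 35 members over the 3 arrays with LynDN in Cy3 (horizontal axis) and the 3 arrays with LynDN in Cy5 (vertical axis), with a line of equality. Adam8, Mmp9 and Plau lie near the line, and Timp2 and Mmp2 lie in the lower right, positive in one orientation and negative in the other.

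Serpinb2 and Tfpi2, inhibitors of the plasmin system, had larger mean ratios than any of the 35 members. Of 10 genes of the plasmin system 8 were measured, 4 positive and 4 negative, with a median of -0.01. Serpinb2, an inhibitor of urokinase, had 0.94, 2.57 and 2.95 in pairs 1, 2 and 3 and a mean of 2.15 ± 1.07 (SD, n = 3). It was positive on 6 of 6 arrays and had an adjusted p of 0.268 in limma on the pair values and of 0.0325 with the block. The arrays of its pairs nearly repeated each other, at 0.86 and 1.03, 2.58 and 2.57, and 2.90 and 3.00. The block p of Serpinb2 therefore counts near repeats of 3 mouse pairs as more separate than they were. Plasminogen (Plg) had -0.18. The plasminogen-binding partners Anxa2 and S100a10 had means of 0.23 and -0.20, on opposite sides. Of the 8 genes, 0 passed on the pair values and 1, Serpinb2, with the block and without pair 1, where it had 2.76. Beside it, 0.603% of all rows passed positive with the block and 3.22% without pair 1.

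Of 12 activators and cell-surface regulators, all measured, 7 were positive and 5 negative, with a median of 0.02. Tfpi2, an inhibitor of plasmin and other serine proteases, had 0.75, 2.21 and 2.26 in pairs 1, 2 and 3 and a mean of 1.74 ± 0.86 (SD, n = 3; adjusted p = 0.268 in limma and 0.0413 with the block). Like Serpinb2 it was positive in pair 1 too, at a lower value than in the other pairs. Rhbdf2, the carrier that brings Adam17 to the cell surface, had a mean of 0.16, Tspan14, which accompanies Adam10, had -0.20, and the serine protease Htra1 had -0.16. In this list 0 genes passed on the pair values and 1, Tfpi2, with the block and without pair 1, where it had 2.23. The shares of all rows passing positive were again 0.603% and 3.22%.

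Of 14 measured substrates that Adam10 and Adam17 release from cells, 10 were positive, beside 43.9% of all rows, with a median of 0.26. An unadjusted p under 0.05 was reached by 8 positive and 2 negative ones, beside 5.92% and 6.41% of all rows. The EGFR ligands Epgn, Ereg and Hbegf had means of 1.68, 1.28 and 1.17, and the ligand Btc had -0.84. With the block, 3 passed positive and 1 negative, beside 0.603% and 0.459% of all rows, and on the pair values 0 passed. Without pair 1 the median was 0.34, and 7 passed positive and 2 negative, beside 3.22% and 1.67% of all rows. The sheddases themselves, Adam17 and Adam10, had 0.15 and 0.06. The members of this list overlap with lists whose earlier results were known, and its median is a description beside the -0.01 of all rows.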

How the data were processed

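Total RNA was extracted with Qiagen and labelled with Ambion reagents, per the labels' protocols. The authors deposited 1 log2 ratio per probe and array (25344 probes, 6 arrays). The sources used here do not give the scanner, background correction, normalization, log base or numerator, and column means were 0. Spot intensities were not used here, so neither signal over background nor saturation could be examined. The number of arrays limits the precision. The labels date 1 array, of pair 2 with LynDN in Cy5, apart from the other 5, so that date could not be tested.

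Probes were named through the platform annotation: 21082 had 1 symbol, 30 several and 4232 none. Probes of a symbol were averaged, which gave 22879 rows, and the 2 arrays of a pair, which hold the same mice per the labels, were averaged. Deviations from the means of each dye orientation correlated within pairs 1, 2 and 3 at 0.391, 0.182 and 0.126. The values themselves correlated between the 2 arrays of these pairs at 0.0239, 0.463 and 0.462. Neither was computed between arrays of different pairs, so no other pairing was compared with that of the labels. The mean of the 3 pair values was compared with 0 by limma 3.58.1 (R 4.3.3), with Benjamini-Hochberg adjustment over all rows at 0.05 and intervals at 95%. The dye orientation was tested likewise on the 3 differences within swaps. The block fit used duplicateCorrelation (consensus 0.151). The fit was tested on simulated data. Rows for Mmp3, Mmp28 and 1 Adamts9 probe lie in the late part of the table, where most values carry fewer digits.

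The members and lists were chosen with earlier results of these data known. All members were named. From each list of partners up to 4 genes with the smallest p were named. Up to 2 genes with the largest size of mean were named from the neutrophil, macrophage and monocyte, fibroblast, stress keratin and sex-linked lists. Genes of the other marker lists were not named. Itgam, Itgax, Mpo, Fcgr1, Adam23, Xist and Uty were named after their values were seen. Alternatives were the block, no block, probes as rows, the median of probes, quantile normalization, median centring, other variance moderation, each pair left out and single dye orientations. Plots were made with Python 3.11.15 and matplotlib 3.10.9.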

Additional observations from a re-analysis of the deposited data

Results flagged for a closer look

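In 3 members the arrays of one dye orientation had one sign and those of the other orientation the opposite sign. For Timp2 the difference, LynDN in Cy3 minus LynDN in Cy5, was 0.82 ± 0.11 (SD, n = 3) on the log2 scale, with adjusted p = 0.0399 in limma. The same difference was 0.67 ± 0.06 (SD, n = 3) for Mmp2, with adjusted p = 0.0523, and 0.26 ± 0.21 (SD, n = 3) for Mmp24, with adjusted p = 0.261. Such opposite signs were present in 11.4% of all rows. The mean over both orientations, given in the report, cancels a dye effect of equal size in the 2 arrays of a pair.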

How the results depend on the processing

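The number of rows called over the whole table was 4 on the pair values and moved with the setting. It was 243 with the replicate block, 319 without the block, 79 after quantile normalization and 0 without variance moderation (limma, with 1752 rows at an unadjusted p under 0.05). It was 54 on the arrays with LynDN in Cy3 and 24 on those with LynDN in Cy5, and 2 to 1117 when 1 pair was left out, with 1117 without pair 1. The number of members called was 0 in these settings, except that leaving out 1 pair gave 0 to 4, with 4 without pair 1. Members with an unadjusted p under 0.05 numbered 6, against 1 without variance moderation (Mmp12) and 1 to 9 when a pair was left out. Without pair 2 and without pair 3 the 1 left was Mmp23. The median over members was 0.02, against 0.0612 and -0.0211 on the arrays with LynDN in Cy3 and in Cy5, and -0.00369 to 0.0492 when a pair was left out. The cause of these changes was not tested, beyond the fewer pairs or arrays that some settings hold. Over 12 alternative fits, 12 of 35 members, among them Adam8, Mmp9, Plau, Adam17, Adamts1 and Mmp23, kept their sign. The fits with the block, without it and with other variance moderation return the same means, so no sign could change in them. The median of probes can differ only for genes with several probes. The sign changed for 11 members on the arrays with LynDN in Cy3, for 7 with LynDN in Cy5, and for 6, 4 and 3 without pairs 1, 2 and 3. Pairing was used in the averages of the dye swaps, and the replicate block changed no call of a member. The 3 pairs give wide intervals: that of Adam8 spanned 0.22 to 1.84.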

Other observations

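Relatives of these proteases that were not members had small ratios. Of 29 other Mmp, Adam, Adamts and Adamts-like (Adamtsl) genes 25 were measured, 9 positive and 16 negative. Their median was -0.03, with a range from -0.33 for Adamts19 to 0.24 for Adam23. Adamts19 had -0.05, -0.41 and -0.52 in pairs 1, 2 and 3 and was negative on 6 of 6 arrays. Mmp21 had 0.11, 0.21 and 0.26 and was positive on 6 of 6 arrays. Of the 25, 0 passed in limma on the pair values or with the block. An unadjusted p under 0.05 was reached by 1 positive and 2 negative genes, beside 5.92% and 6.41% of all rows. Without pair 1, 1 gene passed, Adamts19, at -0.47 (adjusted p = 0.0309 in limma), beside 1.67% of all rows on the negative side.

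Fibroblast markers, 8 of 9 measured, had medians of -0.29, 0.12 and 0.06 in pairs 1, 2 and 3, with Col1a2 at -0.32 ± 0.25 and Col3a1 at -0.23 ± 0.09 (SD, n = 3). Mast cell markers, 5 of 6 measured, had medians of -0.11, 0.58 and 0.55, an order of pairs like that of Adam8 and Mmp9. Hair follicle genes, 8 measured, had medians of 0.10, -0.83 and -0.55. T cell and endothelial markers had medians between -0.12 and 0.07 in each pair.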
